A study of Mus musculus with 4 samples.

Results

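Wnt1, Wnt2, Wnt2b, Wnt3, Wnt3a, Wnt8a, Wnt8b, Wnt10a and Wnt10b are the Wnt ligand genes best known for signalling mainly through β-catenin, the canonical branch of the pathway. These 9 genes were chosen by name from the 19 Wnt ligand genes of the mouse, among 21938 protein-coding genes of the annotation. Trimethylation of lysine 27 of histone H3 (H3K27me3) was described at each of them from the deposited peak lists, using every peak that touched the gene or the 10 kb on either side. The windows held 56 of the 10223 peaks found with 500 erythro-myeloid progenitors (EMPs) and 49 of the 15282 peaks found with 15000 EMPs. In the authors' annotated tables, 51 and 41 rows carried 1 of the 9 symbols.

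H3K27me3 was mapped by CUT&RUN, in which an antibody directs a nuclease to its target and the released DNA is sequenced. EMPs are transient blood progenitors of the yolk sac, and here they came from the yolk sac of C57BL/6 mouse embryos at E10.5 (embryonic age in days). The genotype label of all libraries names Ezh2fl/fl and Tie2-Cre+/+, a Cre driver active in endothelium and the blood cells derived from it, and ends with Wild type. The cells were taken as wild type, as in the study. There was 1 H3K27me3 library from 500 EMPs and 1 from 15000 EMPs, each with an IgG library that served the authors as background. The lists differ in more than cell number. Amplification took 17 PCR cycles for 500 EMPs and 16 for 15000 EMPs, reads were 76 and 59 bp long, the instruments differed, and the p-value limits for a peak were 0.01 and 0.05. The study also states a lower sequencing depth and a much lower alignment rate for 500 EMPs. These differences cannot be told apart from cell number. The peak lists give positions without heights, scores or counts, so the reads behind a peak are unknown, a peak is present or absent, and no test between the libraries was possible. Each library pools many cells, so a mark on every cell and a mark on part of the cells cannot be told apart.

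Wnt proteins are secreted, lipid-modified ligands that bind Frizzled receptors and Lrp5 or Lrp6. In the canonical branch this stops the breakdown of β-catenin, which then enters the nucleus and activates genes together with Tcf and Lef factors. H3K27me3 is placed by Polycomb repressive complex PRC2, whose catalytic subunit can be Ezh2, and it typically lies in broad stretches over CpG-rich starts of developmental genes that are silent in a given cell. Wnt ligand genes are classical Polycomb targets in many cell types.

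All 9 ligand genes had a peak in the gene or within 10 kb in both lists. Among all protein-coding genes the share was 15.1% with 500 EMPs and 25% with 15000 EMPs. Within 3 kb of the gene start, the distance by which the study defined potential Ezh2 targets, 7 of 9 had a peak in both lists, against 9.92% and 17% of all genes. The exceptions in both lists were Wnt8a, with peaks at or beyond its 3′ end, and Wnt8b, with peaks inside the gene and beyond its 3′ end. By the authors' distance column, which runs to the gene end for some peaks, 9 of 9 lay within 3 kb in both lists. The share of all genes by that column was not computed, so this count has no matching comparison. Over the gene with 10 kb on each side, the median length under peaks was 4310 bp with 500 EMPs and 12376 bp with 15000 EMPs. The medians over all genes with any such peak were 870 bp and 3146.5 bp. With 15000 EMPs all 9 ligand genes lay above that median. With 500 EMPs 7 of 9 did, and Wnt2 and Wnt8a lay below it with 137 bp and 569 bp.

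**Figure D1:**
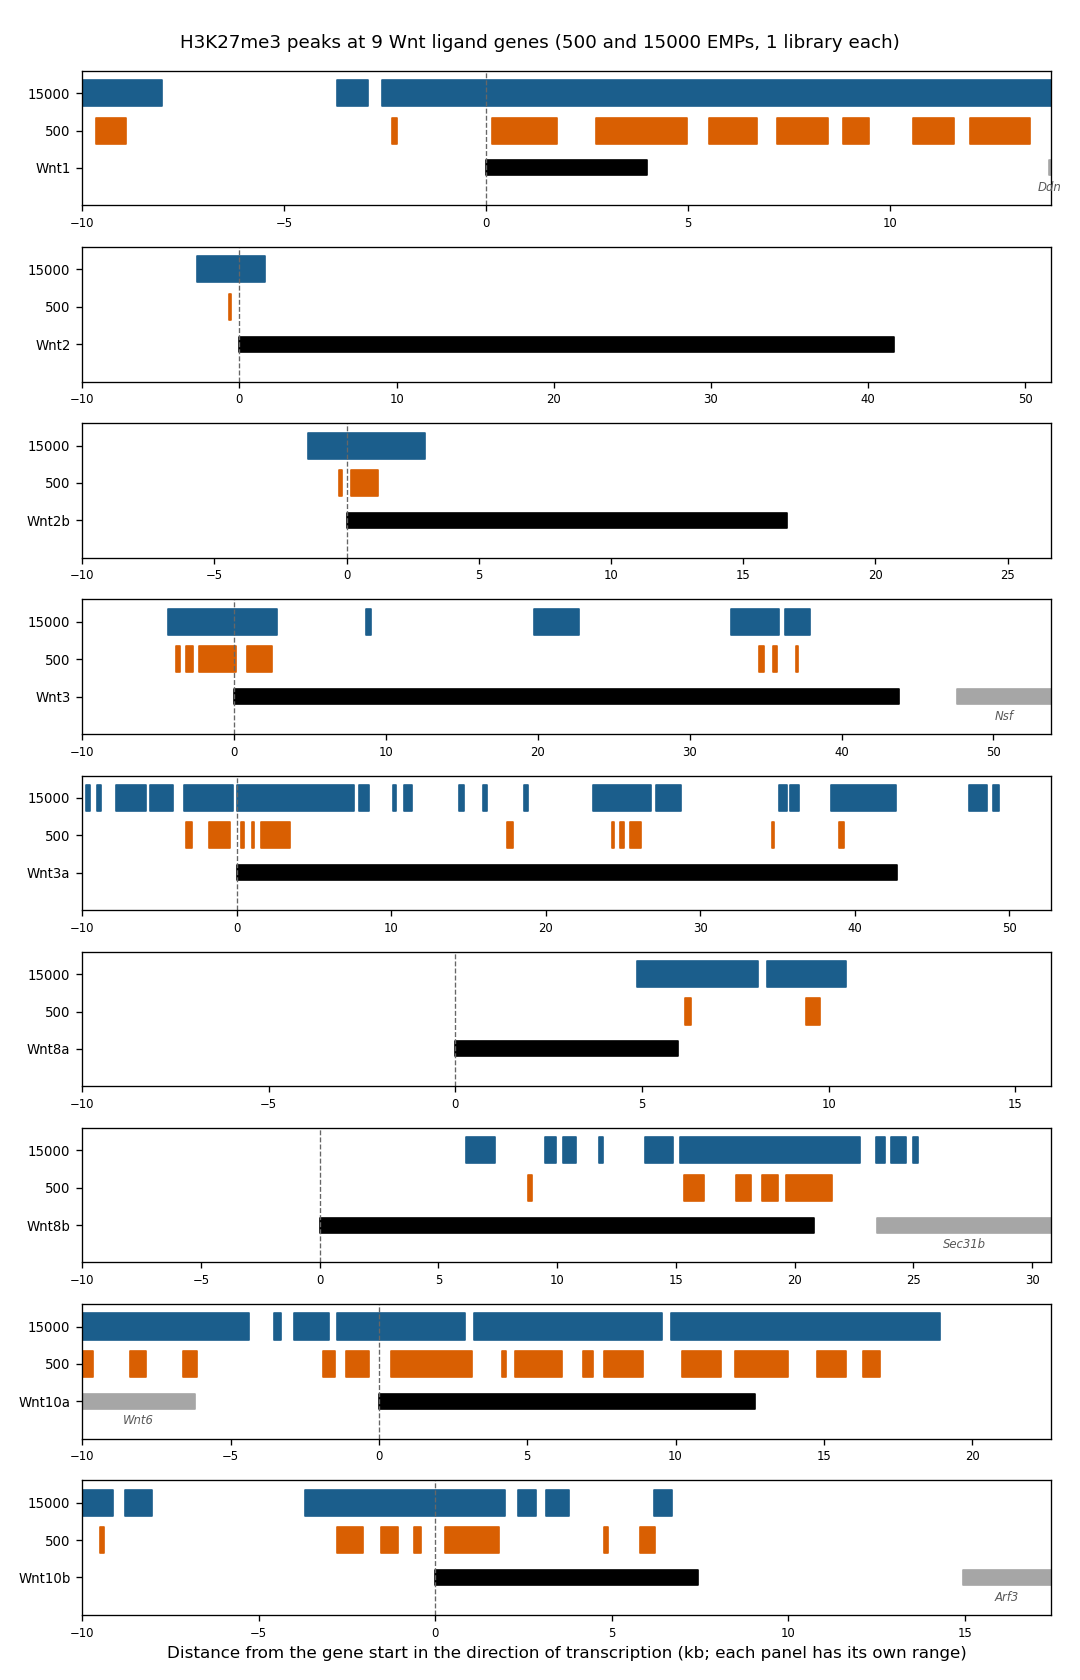
Peaks of the 500-EMP list (orange) and the 15000-EMP list (blue) at the 9 genes, drawn by distance from the gene start in kb in the direction of transcription, with the ligand gene in black and other protein-coding genes in grey. Wnt1 and Wnt10a lay under peaks over most of their length, Wnt2 and Wnt2b had a single 15000-EMP peak at the start, and Wnt8a and Wnt8b had none within 3 kb of the start.

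The 9 genes spanned a wide range. Wnt10a carried the most covered sequence with 500 EMPs (13314 bp) and Wnt3a the most with 15000 EMPs (29116 bp). Wnt2 had the least in both, with 137 bp and 4330 bp. Every gene had more sequence under peaks with 15000 EMPs, by 1.86-fold at Wnt1 to 31.6-fold at Wnt2. The whole lists differed in the same direction, with 5.95 Mb covered with 500 EMPs and 23.96 Mb with 15000 EMPs. The Wnt2 ratio divides by a single peak of 137 bp. Without peaks of the smallest width, the 500-EMP length of Wnt2 was 0 bp and the ratio is undefined. Since Wnt2 and Wnt3a are long genes and Wnt1 is short, the covered share of the gene itself gave another order. It was 72.7% and 100% for Wnt1, 64.3% and 95.05% for Wnt10a, and 28.3% and 49.2% for Wnt10b, with 500 and 15000 EMPs. Wnt8b had 16.9% and 44.5% and Wnt3a 10.04% and 48.0%, so that their order differed between the lists. Wnt2b had 6.20% and 17.8%, Wnt3 5.79% and 25.05%, and Wnt8a 0% and 18.6%. Wnt2 had 0% and 3.92%.

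**Figure D2:**
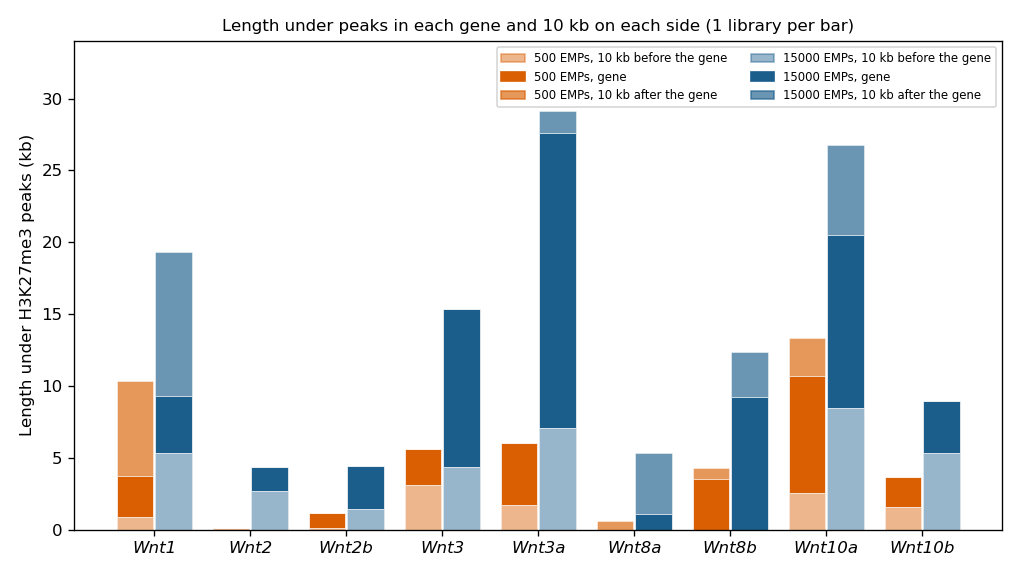
Length under H3K27me3 peaks in kb at each gene, split into the 10 kb before the gene, the gene itself and the 10 kb after it, with 1 library per bar and therefore no error bars. Wnt3a and Wnt10a reached 29116 and 26742 bp with 15000 EMPs, and Wnt2 the lowest values of both lists.

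Wnt1, a signal of the midbrain and of neural crest precursors, and Wnt10b, known from bone and fat, lie side by side on chromosome 15 and are transcribed away from each other. Wnt1 (ENSMUSG00000022997, chr15:98789857-98793837 in mm10, plus strand, 4 exons) lay whole under 1 peak of 19782 bp with 15000 EMPs, at chr15:98787289-98807070. That peak began 2568 bp before the start and ended 13233 bp beyond the gene, inside Ddn, and it ranked 22 by width among the 15282 peaks. With 500 EMPs the same stretch held 10 separate peaks. Of these, 1 of 1622 bp covered parts of exons 1 and 2 from 130 bp after the start. Another of 2249 bp began in exon 4 and ended 976 bp beyond the gene. Beyond the gene but within 10 kb of it lay 5 more, 664 to 1475 bp wide. The Wnt1 length depended on the window, which also takes in the peak at the start of Wnt10b. With 5 kb on each side in place of 10 kb, the 15000-EMP length was 12316 bp in place of 19291 bp.

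The 250 bases before the RefSeq start of Wnt1 (chr15:98789607-98789856, plus strand) are shown because this stretch lay wholly under the broad 15000-EMP peak and wholly in the gap between the 500-EMP peaks. Capitals mark CpG dinucleotides, 23 in number.
Wnt1: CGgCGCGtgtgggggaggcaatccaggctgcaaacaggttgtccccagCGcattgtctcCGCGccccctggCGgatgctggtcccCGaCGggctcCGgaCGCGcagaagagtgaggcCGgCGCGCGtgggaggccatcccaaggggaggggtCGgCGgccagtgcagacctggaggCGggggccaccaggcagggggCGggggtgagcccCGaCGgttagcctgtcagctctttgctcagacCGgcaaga

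Wnt10b (ENSMUSG00000022996, chr15:98770712-98778150, minus strand) had its widest peaks that touch the gene at the start, and smaller ones farther in. With 15000 EMPs a peak of 5650 bp ran from 3681 bp before the start to 1968 bp into the gene, over exons 1 to 3. With 500 EMPs 4 peaks of 226 to 1526 bp lay in that stretch. Deeper in the gene, the 15000-EMP list had peaks of 525 bp, 2335 bp after the start, of 644 bp over exon 4, and of 521 bp, 6182 bp after the start. The 500-EMP list had peaks of 137 bp and 443 bp there, 4766 and 5787 bp after the start. Within 3 kb of the start, 2968 bp and 5494 bp were covered with 500 and 15000 EMPs. Between the starts of Wnt1 and Wnt10b lay 11706 bp, of which 1579 bp and 7016 bp were under peaks. The genes on either side of the pair differed. Arf3, 7497 bp beyond the end of Wnt10b, and Prkag1, beyond Ddn, had 0 bp under peaks in both lists, while Ddn had 3043 bp and 5409 bp.

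Wnt10a, a ligand of teeth, hair and skin appendages (ENSMUSG00000026167, chr1:74791516-74804179, plus strand, 4 exons), lies 6193 bp downstream of Wnt6 on chromosome 1. With 500 EMPs its window held 14 peaks, the most of the 9 genes, with a median width of 794 bp. With 15000 EMPs it held 6 peaks with a median width of 5312 bp. A peak of 4301 bp crossed the start over exons 1 and 2, a peak of 6323 bp held exon 3, and a peak of 9051 bp held exon 4 and ran 6237 bp past the gene end. These 3 stretches overlapped 2, 4 and 4 peaks of the 500-EMP list. Of the 13314 bp covered with 500 EMPs, 96.6% was also covered with 15000 EMPs. The Wnt10a window reaches into Wnt6, so part of the length and of the peaks belongs to that gene. In the 10 kb before Wnt10a, 2536 and 8468 bp were covered with 500 and 15000 EMPs. Of these, 1248 and 4661 bp lay between the genes.

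Wnt3, required for gastrulation, and Wnt3a, required for the tail bud and for somites, are both on chromosome 11 but far apart. Wnt3 (ENSMUSG00000000125, chr11:103774150-103817957, plus strand, 5 exons) was the ligand gene whose start lay under a peak in both lists. The 500-EMP peak was 2457 bp wide and reached from 2313 bp before to 143 bp after the start. The 15000-EMP peak across the start was 7154 bp wide and held 4 of the 500-EMP peaks. Further peaks lay deep in the gene. With 500 EMPs 3 peaks of 137 to 330 bp lay 34599 to 37153 bp after the start, in introns. With 15000 EMPs peaks of 3157 and 1685 bp lay there, over exons 2 and 3, and a peak of 2965 bp, 19722 bp after the start, had no counterpart with 500 EMPs. Nsf, 3824 bp beyond the end of Wnt3, had no covered base in either list.

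The sequence before Wnt3 is shown because it lay wholly under peaks in both lists. It is the first part of the RefSeq promoter window, chr11:103773925-103774055 on the plus strand, 131 bases that no annotated exon reaches, with 10 CpG in capitals.
Wnt3: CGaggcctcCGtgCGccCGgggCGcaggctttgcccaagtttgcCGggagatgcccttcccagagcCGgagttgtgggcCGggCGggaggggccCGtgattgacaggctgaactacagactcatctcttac

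Wnt3a (ENSMUSG00000009900, chr11:59248033-59290752, minus strand, 4 exons) had the most peaks with 15000 EMPs, 19 in its window, and 11 with 500 EMPs. The widest, 7626 bp, ran from 1 bp after the start through exon 1 into the first intron. A second of 3141 bp ended 239 bp before the start. Thus the break in the mark at the start was 239 bp long with 15000 EMPs. With 500 EMPs it was 750 bp. A 15000-EMP peak of 4168 bp lay over exon 4 and stopped 76 bp short of the gene end. Of the 500-EMP peaks in the gene, 1 of 137 bp, 34621 bp after the start, and 1 of 438 bp overlapped no 15000-EMP peak.

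The stretch before the start of Wnt3a is shown for this break, which included most of it. It lies at chr11:59290753-59291001, is printed on the minus strand, and has 41 CpG in 249 bases. Only the outermost 11 bases of the 250-base window were under a peak with 15000 EMPs, and none with 500 EMPs.
Wnt3a: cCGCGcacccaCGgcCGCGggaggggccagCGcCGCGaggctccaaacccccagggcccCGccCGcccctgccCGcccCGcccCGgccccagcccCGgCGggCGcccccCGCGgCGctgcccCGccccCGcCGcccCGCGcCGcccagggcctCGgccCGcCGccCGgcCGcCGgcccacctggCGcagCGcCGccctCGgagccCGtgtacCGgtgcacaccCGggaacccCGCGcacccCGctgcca

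Wnt2 and Wnt2b, which act together in the forming lung, had the shortest covered lengths of the 9 genes with 15000 EMPs. Wnt2 (ENSMUSG00000010797, chr6:17988940-18030585, minus strand) had 1 peak of 4330 bp with 15000 EMPs, from 2698 bp before the start to 1631 bp after it, over exon 1. Wnt2b (ENSMUSG00000027840, chr3:104945272-104961921, minus strand) had 1 peak of 4421 bp, from 1461 bp before to 2959 bp after the start, also over exon 1. The remaining length of both genes, and the 10 kb beyond them, held no peak in either list. With 500 EMPs Wnt2b had peaks of 137 and 1032 bp on the sides of the start. Wnt2 had a single peak of 137 bp, 513 bp before the start, and 137 bp was the smallest width in the whole 500-EMP list, shared by 1759 peaks. The neighbouring genes Asz1 and St7l had no covered base.

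This smallest peak is shown because all of the 500-EMP evidence at Wnt2 rests on it. It lies at chr6:18031098-18031234, is read on the minus strand from the GRCm38.p6 genome, and touches no annotated exon. The outermost RefSeq start of Wnt2 lies 2187 bp farther out than the GENCODE start, so that the RefSeq gene contains it. It has 2 CpG in 137 bases.
Wnt2: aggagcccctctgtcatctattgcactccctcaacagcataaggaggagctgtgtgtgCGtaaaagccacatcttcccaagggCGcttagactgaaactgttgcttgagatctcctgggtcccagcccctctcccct

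Wnt8a, active around gastrulation, and Wnt8b, a gene of the embryonic forebrain, were the 2 without a peak within 3 kb of the start. At Wnt8a (ENSMUSG00000012282, chr18:34542313-34548273, plus strand, 6 exons) the peaks lay at and beyond the gene end. With 15000 EMPs a peak of 3253 bp began in exon 6, 4855 bp after the start, and ran 2147 bp past the gene, followed by a peak of 2107 bp. With 500 EMPs there were 177 bp and 392 bp inside these peaks, the first starting 178 bp beyond the gene. At Wnt8b (ENSMUSG00000036961, chr19:44493472-44514273, plus strand, 6 exons) the 15000-EMP list had 9 peaks, none closer to the start than 6173 bp. The widest, 7606 bp, covered exons 2 to 6 and 1957 bp beyond. It held 4 peaks of the 500-EMP list, 633 to 1947 bp wide. The gene start of Wnt8b and the 10 kb before it were free of peaks in both lists.

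At most genes with a mark near the start, the 500-EMP list broke at the start itself. The start lay under a peak in 1 of 9 genes with 500 EMPs, namely Wnt3, and in 6 of 9 with 15000 EMPs, namely Wnt1, Wnt2, Wnt2b, Wnt3, Wnt10a and Wnt10b. The shares among all genes were 1.4% and 8.63%. With 500 EMPs, peaks reached both sides of the start within 3 kb at 6 ligand genes, and the start itself was free at 5 of them. The same held for 72.2% of all 1104 genes flanked in this way, so a free start between peaks was common in that list. The free stretch was 318 bp at Wnt2b, 656 bp at Wnt10b, 731 bp at Wnt10a, 750 bp at Wnt3a and 2330 bp at Wnt1. At Wnt1 and Wnt2b the peak bounding it before the start had the smallest width of that list, 137 bp. The next 500-EMP peak before Wnt1 lay 8922 bp from the start. With 15000 EMPs 1 of 7 flanked ligand genes had a free start, Wnt3a, beside 27.8% of 2622 genes. This value rests on the annotation. The RefSeq start of Wnt3a lies 1 bp from the GENCODE start and was under the peak. With 500 EMPs the RefSeq starts of Wnt2b and Wnt10a, 212 and 503 bp inside the GENCODE starts, were also under peaks, which gave 3 of 9.

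**Figure D3:**
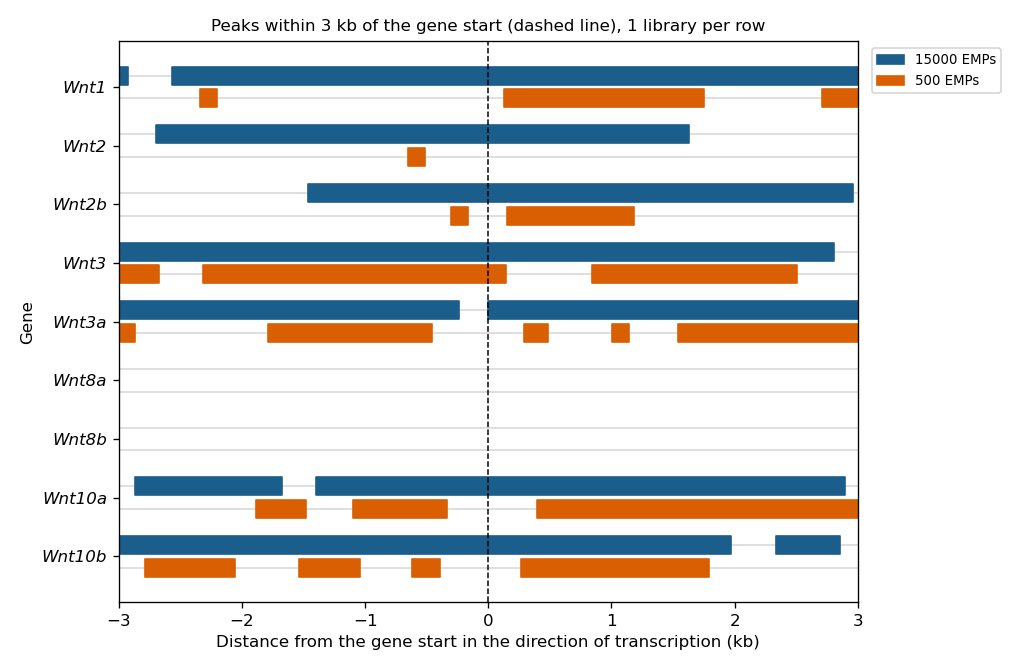
Peaks in the 3 kb on each side of the gene start (dashed line), with the 15000-EMP list in blue above the 500-EMP list in orange for each gene. The start was free of 500-EMP peaks at all genes except Wnt3, while 15000-EMP peaks crossed it at 6 of 9.

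Measured by the length covered within 3 kb of the start, Wnt3 led the ligand genes in both lists, with 4446 bp and 5805 bp, rank 44 and rank 168 of 21938 genes. Wnt10a followed with 500 EMPs (3775 bp), then Wnt3a (3250 bp), Wnt10b (2968 bp), Wnt1 (2052 bp), Wnt2b (1169 bp) and Wnt2 (137 bp). With 15000 EMPs, Wnt3a (5762 bp), Wnt1 (5643 bp), Wnt10a (5495 bp) and Wnt10b (5494 bp) lay close to Wnt3, and Wnt2b (4421 bp) and Wnt2 (4330 bp) lower. This length cannot exceed 6001 bp. From Wnt10b to Wnt3, 91.6 to 96.7% of that limit was covered, so little room was left for these genes to differ. With 1 library per list, the order of neighbours that differ by a few bp has no replicate check.

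Domains were formed by joining peaks within 3 kb, and 4 of the 9 ligand genes shared a 15000-EMP domain with another protein-coding gene, beside 19% of the 4039 genes that met a domain. The widest, chr1:74764411-74810416, was 46006 bp long, contained 13 peaks and both Wnt6 and Wnt10a with their starts, and was covered by peaks over 37570 bp. The second joined Wnt3a to Wnt9a, the next gene upstream, transcribed in the opposite direction. It was 33255 bp long with 14 peaks and 24428 bp covered, and between the genes 10381 of 16175 bp were covered. The third was the 23457-bp domain of Wnt1, which contained the start of Ddn, a gene known from neurons. The fourth ran 19001 bp from the first intron of Wnt8b into the 3′ part of Sec31b, a homologue of a vesicle coat protein. Sec31b had no peak within 3 kb of its own start.

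Thus 2 of the 4 shared domains contained a pair of Wnt genes. Neither of the other Wnt pairs was joined at 3 kb. Wnt1 and Wnt10b lay in separate domains, and Wnt3 and Wnt9b, 24328 bp apart, had 7745 bp of covered sequence between them with 15000 EMPs. With 500 EMPs only Wnt1 shared a domain, with Ddn, that is 1 of 7 ligand genes that met a domain, beside 16% of 2301 genes. This count depended on the joining distance. Without joining, 1 ligand gene shared a 15000-EMP peak with a neighbour and 0 shared a 500-EMP peak.

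Most 500-EMP peaks at the ligand genes lay within 15000-EMP peaks. Of the 56, 52 shared 1 bp or more with a 15000-EMP peak (92.9%, 95% Wilson interval 83.0 to 97.2%, counting error only), beside 91.2% of all 500-EMP peaks. In reverse, 20 of 49 overlapped a 500-EMP peak (40.8%, interval 28.2 to 54.8%), beside 32.2% overall. Both shares were thus near those of the whole lists. The 4 peaks without overlap lay in Wnt3a, Wnt8b and Wnt10b and were 137 to 438 bp wide. The 29 peaks of the 15000-EMP list without overlap were 181 to 2965 bp wide, none of them among the peaks that crossed a start. Median widths were 535.5 bp and 1194 bp at the ligand genes, and 363 bp and 770 bp over the whole lists. Of the 56 peaks, 8 had the smallest width of the 500-EMP list.

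The promoter table of RefSeq (GRCm38.p6) matched 7 of the 9 genes, all but Wnt8a and Wnt10a. CpG was counted as the letters CG, which read the same on both strands, in the 250 bases before the start that this table uses. For Wnt2 and Wnt10b that start lies inside the outermost RefSeq start of the gene. Wnt3a had 41, Wnt2b 36, Wnt1 23, Wnt3 22, Wnt2 20, Wnt10b 14 and Wnt8b 5. The median over 21263 promoters was 10 (quartiles 3 and 19), and 93.4% held at least 1 CpG. Of the 7, the 6 above the median had their RefSeq start under a 15000-EMP peak, and Wnt8b, the only one below it, did not. For Wnt3a only 11 of the 250 bases were under a 15000-EMP peak, and its GENCODE start, 1 bp from the RefSeq start, was not. Over all promoters this was not a steady relation. The share with the start under a 15000-EMP peak was 2.56% for 0 to 3 CpG, 11.7% for 4 to 10, 11.2% for 11 to 19 and 8.34% for 20 to 56.

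For contrast with the ligand genes marked at the start, the 250 bases before Wnt8b (chr19:44493222-44493471, plus strand) are shown. They hold 5 CpG and no peak.
Wnt8b: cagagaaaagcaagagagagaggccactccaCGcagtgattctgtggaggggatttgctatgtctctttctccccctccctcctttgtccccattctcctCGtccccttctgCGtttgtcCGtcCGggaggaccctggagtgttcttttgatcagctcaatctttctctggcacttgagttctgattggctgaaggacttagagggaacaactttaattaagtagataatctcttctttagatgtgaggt

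**Figure D4:**
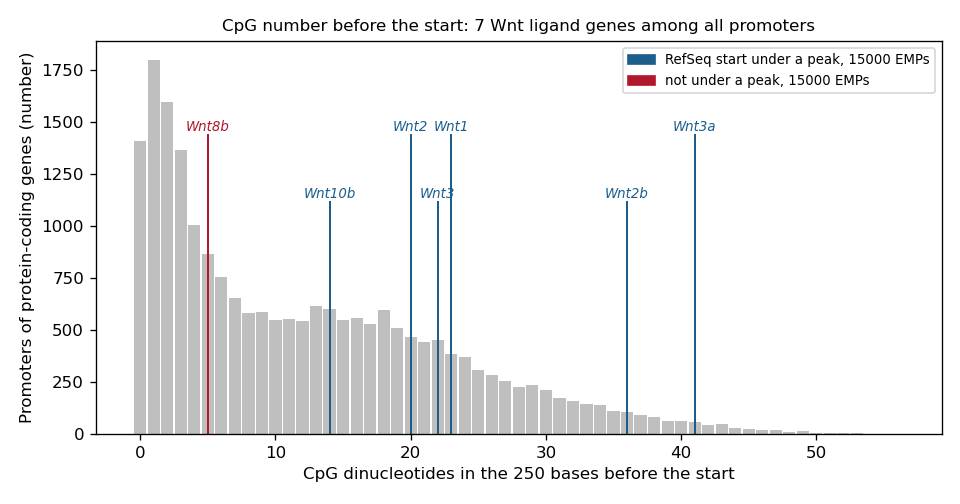
Number of CpG dinucleotides in the 250 bases before the start, for all promoters (grey bars) and for 7 ligand genes (lines, blue where the RefSeq start lay under a 15000-EMP peak and red where it did not). Wnt3a and Wnt2b, with 41 and 36, lay in the sparse upper end, and Wnt8b, with 5, was the only red line. The RefSeq start of Wnt3a was the outermost base of its peak.

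Patterns over the 10 kb on each side of the start were compared by the Jaccard index, the length covered at both genes over the length covered at either, summed over both lists. Among the ligand genes the most alike were Wnt3a and Wnt10a (0.584) and Wnt1 and Wnt10a (0.562). Of the pairs named alike, Wnt2 and Wnt2b reached 0.444, Wnt3 and Wnt3a 0.390, Wnt10a and Wnt10b 0.356, and Wnt8a and Wnt8b 0.301. Among 4517 other genes with peaks, the most alike was Tbx5 for Wnt1 (0.724), Hoxa7 for Wnt10a (0.70) and Nkx6-2 for Wnt3 (0.709). For Wnt10b it was Bhlhe41 (0.591). Wnt2b, Wnt2 and Wnt8a, with few covered bases in this window, came closest to Gja3 (0.868), 4833427G06Rik (0.845) and Ppp1r11 (0.853). For Wnt8b, with little covered sequence near the start, the best was Mag (0.609).

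The rest of the pathway was counted in the same way, by a peak within 3 kb of the start, which 9.92% of all genes had with 500 EMPs and 17% with 15000 EMPs. All 10 of the other Wnt ligand genes had a peak within 3 kb of the start in both lists, led with 15000 EMPs by Wnt9b (6001 bp covered), Wnt11 (5700 bp), Wnt6 (5661 bp) and Wnt9a (5416 bp). The 9 ligand genes described here thus had the only 2 Wnt ligand genes without such a peak, Wnt8a and Wnt8b. Of 13 secreted antagonists, 8 had a peak with 500 EMPs and 11 with 15000 EMPs, led by Sfrp1 (5511 bp), Notum (5493 bp), Sfrp5 (4935 bp) and Dkk1 (3970 bp). Sfrp proteins bind Wnt ligands, and Notum removes their lipid. Dkk4 and Sostdc1 had no peak. R-spondins bind Lgr receptors and block Rnf43 and Znrf3, which remove Frizzled from the cell surface. Of these 9 genes, 5 and 6 had a peak, led by Lgr5 (4803 bp) and Rspo1 (4625 bp), then Rspo2 (4376 bp) and Lgr6 (3153 bp). Lgr4, Rnf43 and Znrf3 had none.

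Of 10 Frizzled receptor genes, 4 had a peak with 500 EMPs and 6 with 15000 EMPs. The most covered were Fzd2 (5829 bp), Fzd10 (4787 bp), Fzd1 (3935 bp) and Fzd3 (3028 bp), with Fzd4, Fzd5, Fzd7 and Fzd8 free in both lists. Of 6 co-receptor genes, 1 and 3 had a peak, Ryk in both lists and Ror2 (4143 bp) and Ror1 (2487 bp) with 15000 EMPs alone, and Lrp5, Lrp6 and Ptk7 had none. Of 5 genes for Wnt processing and secretion, none had a peak with 500 EMPs, and 1 had with 15000 EMPs, Porcn (1287 bp), which adds the lipid. Wls, the carrier of Wnt proteins to the cell surface, had none, nor had Tmed2, Tmed5 and Vps35. Of 17 intracellular components, 2 and 5 had a peak. Lef1, a nuclear partner of β-catenin, was covered over 3823 bp and 6001 bp within 3 kb of its start. With 15000 EMPs Tcf7 (3755 bp), Pygo1 (3584 bp) and Tcf7l1 (2566 bp) followed, all nuclear factors too. Ctnnb1, which encodes β-catenin itself, and the breakdown complex genes Apc, Axin1, Gsk3a, Gsk3b and Csnk1a1 had no peak in either list, and neither had Dvl1, Dvl2, Dvl3, Bcl9, Bcl9l and Pygo2. The shares of the co-receptor, secretion and intracellular lists were 16.7%, 0% and 11.8% with 500 EMPs and 50%, 20% and 29.4% with 15000 EMPs, and the 95% Wilson interval of each, except that of the co-receptors with 15000 EMPs, contained the share of all genes. No difference between these short lists was tested.

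**Figure D5:**
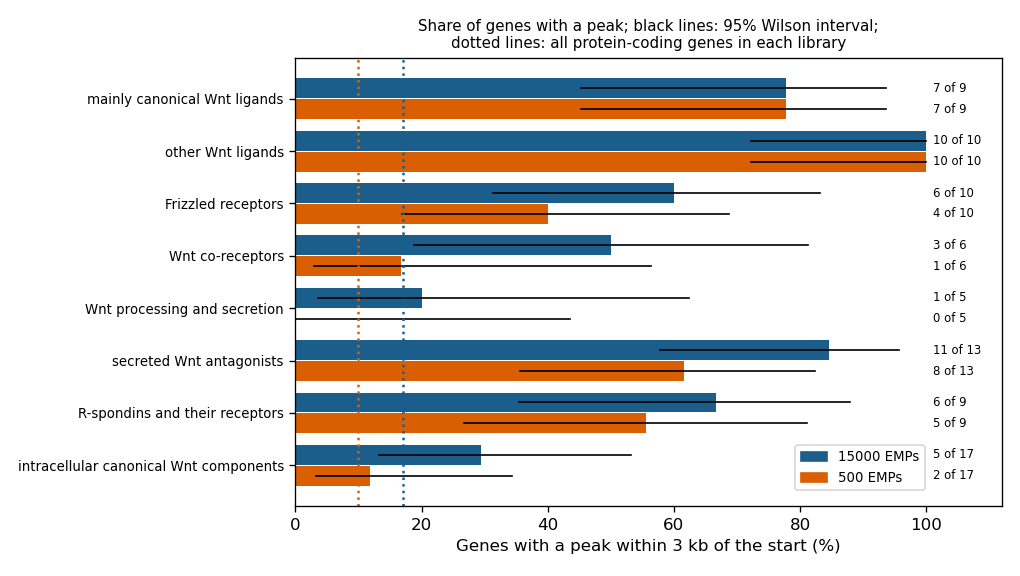
Percentage of genes in each Wnt pathway list with a peak within 3 kb of the start, for 500 EMPs (orange) and 15000 EMPs (blue), with 95% Wilson intervals as black lines and the share of all protein-coding genes as dotted lines. All 10 other Wnt ligands and 7 of the 9 mainly canonical ones had a peak in both lists, and Wnt processing and secretion genes had 0 and 1 of 5.

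The labelled cell type was set beside marker genes. None of 12 EMP and early blood marker genes, such as Kit, Itga2b, Runx1 and Csf1r, had a peak within 3 kb of the start in either list (0%, 95% Wilson interval 0 to 24.2%, which contains the 9.92% and 17% of all genes). This count does not test the label. Of 8 endothelial genes, Sox17 had a peak in both lists, and Kdr and Sox18 had one with 15000 EMPs alone. All 8 neural and mesodermal genes, such as Pax6 and Myod1, had a peak in both.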

How the data were processed

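CUT&RUN peak lists of 2 H3K27me3 libraries (500 and 15000 EMPs, 1 library each) were used. Per the labels and the study's methods, the authors aligned reads to mm10 (GRCm38) with Bowtie2 2.2.1 and called broad peaks per library with MACS2 2.1.2 against IgG, at p-value limits of 0.01 (500 EMPs) and 0.05 (15000 EMPs). The submitters' processing notes also name SAMtools 1.9 and deepTools 3.5.1. In the authors' command listing each limit stands beside the library of the other cell number, and the lists were used as labelled. The deposited files used here hold peak positions, and an annotated table adds gene symbols and a distance, but no scores. Signal tracks were not used here. The distance column runs to the gene end for some peaks, so distances were recomputed.

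Genes were GENCODE vM21 protein-coding genes, and sequences came from RefSeq GRCm38.p6. Peaks were intersected with Python 3.11.15 and NumPy 2.4.6, with an overlap of at least 1 bp, a window of 10 kb on each side of the gene, and domains joined within 3 kb. The hits at the start, within 3 kb and within 10 kb, and the covered length were tested on simulated peaks at genes far from others. Joining was tested on a small example. The other steps were not tested in this way. Each group had 1 library, so no test was made. By rule, all 9 members were named, with protein-coding genes that overlap a member's domain or lie within 10 kb of a member and, of each pathway list, genes with the most covered bases and those with none. Members and lists were chosen with earlier results of these data known. IgG libraries were not analysed here. Alternatives varied the window, the smallest peak width, the definition of the start, the overlap and the joining distance. The gene most alike to Wnt3a is not reported here.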

Additional observations from a re-analysis of the deposited data

How the results depend on the processing

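Across 56 alternatives for the counts, lengths and shares over all 9 genes, 41 stayed within 1.5 times the value given (shares, within their interval) and 15 moved. For single genes, 61 of 72 covered lengths stayed and 11 moved. The 15000-EMP length of Wnt10a was 17632 bp with 3 kb on each side, in place of 26742 bp. With only 500-EMP peaks of at least 500 bp, Wnt3a had 3976 bp, Wnt10b 2253 bp, and Wnt2 and Wnt8a 0 bp. The other moved lengths were those of Wnt1, Wnt2 and Wnt8a under other settings. The number of starts under a 500-EMP peak, 1 of 9, was 3 with any annotated start, 3 with the RefSeq start, 5 with peaks joined within 1 kb and 6 with peaks joined within 3 kb. The share of 500-EMP peaks overlapping a 15000-EMP peak, 92.9%, was 1.79% where at least 50% of both peaks had to overlap and 100% within 1 kb. The reverse share, 40.8%, was 2.04% where 50% of the query peak had to overlap and 2.04% for 50% of both, 59.2% within 1 kb and 81.2% with peaks joined within 3 kb. The number of genes sharing a 500-EMP domain, 1, was 0 without joining, 0 with joining within 1 kb, 2 with joining within 5 kb and 0 when the neighbour's start alone counted. With 15000 EMPs the number, 4, was 1 without joining. The cause was not tested beyond the construction of each alternative.

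No paired analysis was possible because each group had 1 library and no test was made. The peak lists give no reads or height per peak, so a region without a peak cannot be told apart from one marked below the limit of that library.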
